A study of Homo sapiens with 21 samples.

Results

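The expression of 9 RNA-binding proteins that set splice site choice in epithelial-to-mesenchymal transition (EMT) was followed through a TGFβ time course. The genes were ESRP1, ESRP2, RBM47, RBFOX2, QKI, MBNL1, PTBP1, SRSF1 and HNRNPM and were chosen by symbol. They were 9 of the 23201 gene symbols of the deposited table, and all 9 were among the 13343 genes that were tested, those averaging 10 or more over the libraries. The cells were HMLE, an immortalized human mammary epithelial line, so every library came from 1 line and none from tumour tissue. Untreated cells (labelled Untreated, Day0) are called d0, and cells induced with TGFβ are called d1, d4, d7, d10, d15 and d20 after their days of treatment. All wells were seeded at 1 starting density and RNA was taken by Trizol for RNA-seq. Each of the 7 timepoints had 3 libraries, described in the study as biological triplicates, and no vehicle control of matched age was used here, so days of TGFβ and days in culture cannot be told apart. Values are normalised read counts per gene, that is the reads of a gene divided by 1 size factor per library. A gene-level count cannot show which exons were used, so none of the values below is a measurement of splicing. In RNA from bulk cultures, fewer cells with a transcript and less transcript per cell cannot be told apart.

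An alternative exon is kept or skipped according to the proteins bound on and around it, and the position of the binding site often decides whether the same protein promotes or blocks inclusion. Epithelial cells depend on ESRP1 and ESRP2, which hold genes such as FGFR2, CD44, CTNND1 and ENAH in their epithelial isoforms, whereas RBFOX2, QKI and MBNL1 are known for exons that change as cells become mesenchymal. PTBP1, SRSF1 and HNRNPM are abundant in most cell types, and their balance with the ESRP proteins is known to shape isoforms in EMT.

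The 21 libraries held 18847917 to 22667754 reads each. Epithelial and mesenchymal markers were both abundant: KRT5, a basal keratin, averaged 224349 at d0 and 109382 at d20, KRT14, its partner keratin, 72774 and 91697, CDH1 (E-cadherin) fell from 7195 to 2868 (log2 fold change -1.33, adjusted p = 1.7e-14), and VIM (vimentin) rose from 5181 to 63815 (3.62, adjusted p = 4.31e-20). PTPRC, the pan-leukocyte marker, had at most 1 read in any library. The third d7 library in column order, called d7 library 3, stood apart from the other 2 of its timepoint, with a root mean square log2 difference over genes of 0.457 to 0.472 against 0.214 to 0.243 for every other pair within a timepoint. Its summed basal epithelial markers were 360936, against 726545 and 679709 in the other d7 libraries, so results at d7 are given with and without it. Rescaling every library to 1 total moved the median over all genes tested, in log2 fold change, by -0.16 to -0.23, depending on the day, and small rises below are given with that setting beside them.

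All 3 epithelial regulators were lower at d20 than at d0, and RBM47 fell furthest. At d20 RBM47 stood at 16.7% of its d0 level on the fitted scale, ESRP1 at 49.2% and ESRP2 at 51.2%, while RBFOX2 and QKI were higher by 1.31-fold and 1.24-fold, the latter not called when every library was rescaled to 1 total. MBNL1 differed from d0 by -0.03 on the log2 scale (adjusted p = 0.562), but by -0.23 (adjusted p = 2.19e-05) with 1 total per library and -0.17 (adjusted p = 0.00013) after quantile normalization. PTBP1, SRSF1 and HNRNPM did not move in 1 direction: all 3 were lower at d7 and d15 and higher at d10, where the rise of PTBP1 was not called after quantile normalization. Each of the 9 genes passed the F-test over the 6 treated days, as did 95.9% of all genes tested, so passing it is not particular to them. The median ratio of highest to lowest timepoint mean was 2.43 over the 9 genes and 1.77 over all genes tested.

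**Figure D1:**
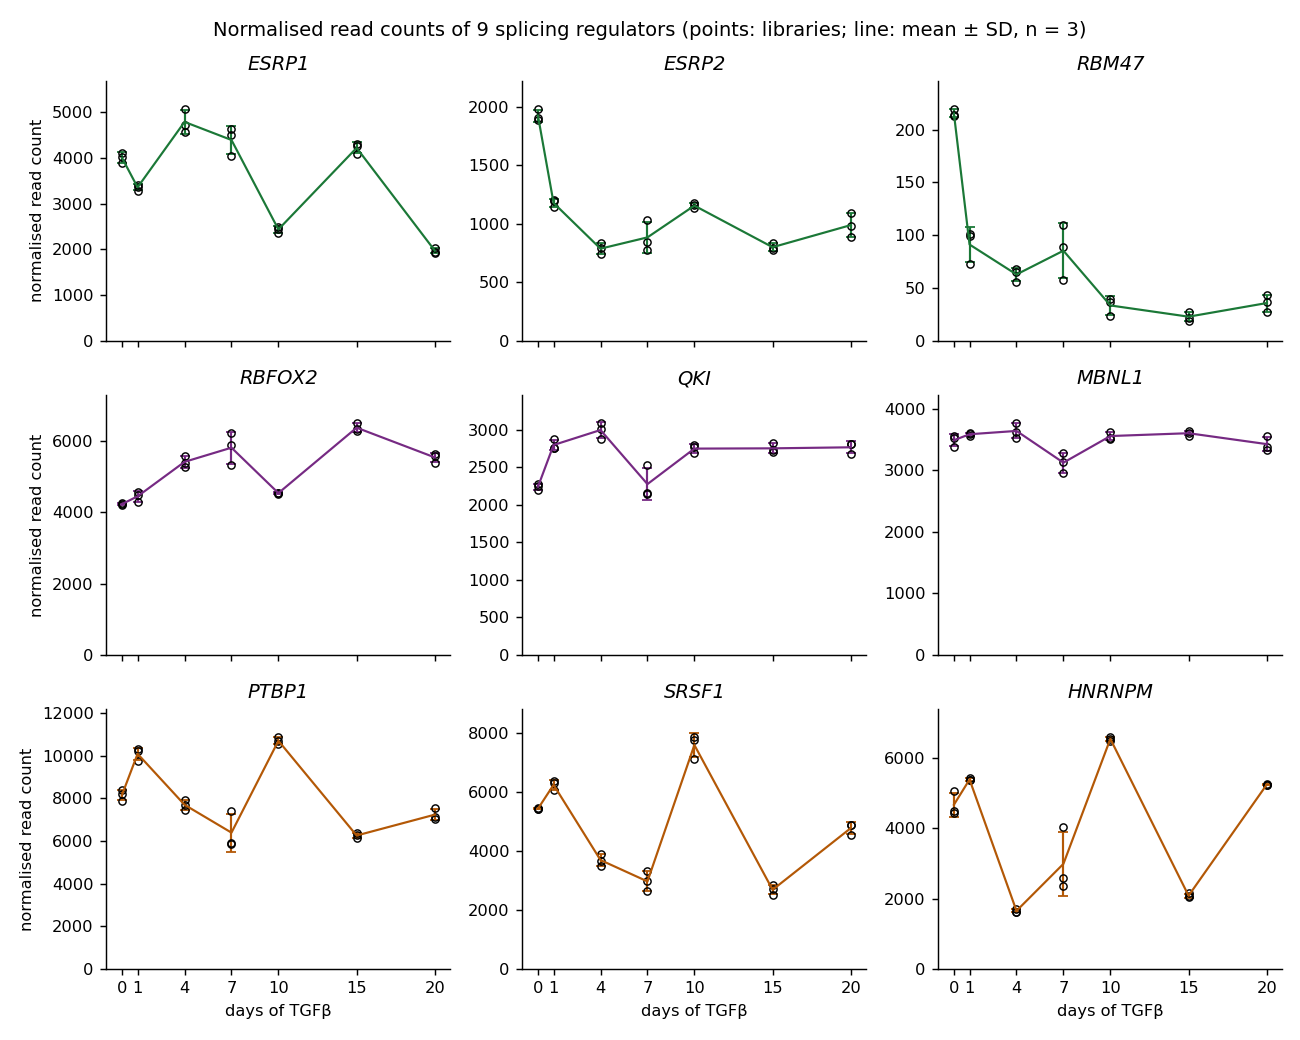
Normalised read counts (y axis, from 0) against days of TGFβ (x axis) for each of the 9 genes, with open circles for the 3 libraries of a timepoint and a line through the means with SD bars. ESRP2 and RBM47 drop by d1 and stay low, MBNL1 is nearly flat, and PTBP1, SRSF1 and HNRNPM all peak at d10 and lie below d0 at d7 and d15, with the lowest HNRNPM at d4.

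Against d0, 3 of the 9 genes were higher and 3 lower at d1, where 31.3% of all genes tested were called higher and 28.5% lower. Without d7 library 3, 5 were higher at d1, and calls over all genes in either direction rose from 59.8% to 66.3%. At d4 the counts were 3 and 4, beside 36.9% and 35.3% of all genes. Without d7 library 3 they were 3 and 5, with calls over all genes at 76.6% instead of 72.2%. At d7 they were 2 and 6, with and without d7 library 3, beside 34.6% and 32.6%. At d10, 5 genes were higher and 3 lower, beside 37.0% and 30.7%. At d15 they were 2 and 5, beside 39.2% and 37.3%, and at d20 again 2 and 5, beside 32.5% and 30.2%. Without d7 library 3, 3 were higher at d15 and 3 at d20. Calls over all genes rose there too, from 76.5% to 79.9% and from 62.7% to 68.7%. Of the 9, 4 were called higher on one day and lower on another, beside 28.7% of all genes tested. Falls outnumbered rises among the 9 genes at d4, d7, d15 and d20. With every library rescaled to 1 total, the members called higher and lower were 1 and 5, 2 and 6, 1 and 7, 3 and 5, 2 and 6, and 1 and 6 in the order of the days. That rescaling turned the split over all genes as well, where the share of rises among calls went from 52.3% to 26.7% at d1, with 51.1% to 34.3%, 51.5% to 31.7%, 54.6% to 29.8%, 51.3% to 39.1% and 51.9% to 28.2% on the later days.

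A change of at least 2-fold was rarer. From d1 to d20 it was reached by 1 member (10.3% of all genes), 3 (14.7%), 2 (11.7%), 1 (14.3%), 4 (20.3%) and 2 (12.2%). Every one of those calls was a fall. They belonged to RBM47 on all 6 days, ESRP2 at d4, d7 and d15, HNRNPM at d4 and d15, SRSF1 at d15 and ESRP1 at d20. In absolute size, the median log2 fold change of the members was 0.25, 0.42, 0.46, 0.48, 0.59 and 0.31 from d1 to d20, and that of all genes was 0.26, 0.38, 0.31, 0.32, 0.46 and 0.28. The 6 comparisons share the d0 libraries and are not independent of each other.

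**Figure D2:**
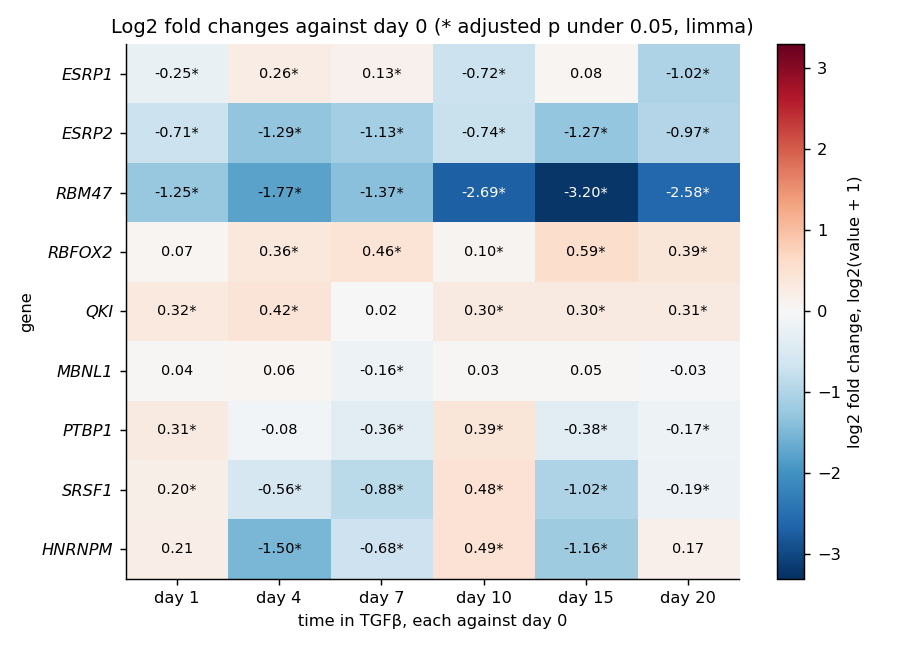
Log2 fold changes on the log2(value + 1) scale for the 9 genes (rows) on each day of TGFβ against day 0 (columns), with blue for lower and red for higher, and a star where the adjusted p was under 0.05. RBM47 is lowest in the grid, at -3.20 on day 15, and no rise exceeds 0.59.

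ESRP1, the main epithelial splicing factor of the family, did not fall steadily. Its values were 3884, 4117 and 4023 on d0, and 3420.2, 3373 and 3286 on d1. They were 5079, 4580.5 and 4718 on d4, 4648, 4502 and 4040.3 on d7 and 2365, 2499 and 2449 on d10. Late in the course they were 4319, 4092 and 4261 on d15, and 1942, 1931 and 2041 on d20. The d4 libraries all lay above the d0 libraries, the d1, d10 and d20 libraries all lay below them, and those of d7 and d15 overlapped with d0. On the log2 scale the changes were -0.25 (SE 0.05, adjusted p = 9.72e-05) at d1, 0.26 (SE 0.05, adjusted p = 5.53e-05) at d4, -0.72 (SE 0.05, adjusted p = 1.81e-11) at d10 and -1.02 (SE 0.05, adjusted p = 4.18e-14) at d20. The rise at d4 was not kept when libraries were rescaled to 1 total (0.06, adjusted p = 0.217).

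At d7 the call for ESRP1 was close to the threshold, at 0.13 (SE 0.05, adjusted p = 0.0189). It became 0.19 without d7 library 3 (adjusted p = 3.79e-05), was lost without either of the other d7 libraries, and turned to -0.06 with 1 total per library. The call was also lost after quantile normalization (0.08, adjusted p = 0.162) and without d0 library 1 (0.11, adjusted p = 0.0814). A fit of only the 2 timepoints lost it as well (adjusted p = 0.118). At d15 the difference from d0 was 0.08 (SE 0.05, adjusted p = 0.151). It was called without d7 library 3 (adjusted p = 0.0451) and in a fit of only the 2 timepoints (adjusted p = 0.0390). The sequence of levels was therefore d4, d7, d15, d0, d1, d10 and d20 from high to low, where d4, d7, d15 and d0 overlapped with their neighbours and every step from d0 downward separated all libraries. From d15 to d20 ESRP1 fell by 1.10 on the log2 scale (SE 0.05, adjusted p = 1.93e-14). Between d4 and d20, the days of its highest and lowest change, the difference was 1.28 (adjusted p = 1.01e-14), in a contrast where 66.8% of all genes tested were called.

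ESRP2, its paralog with largely shared target exons, was down on every treated day. The d0 values were 1886, 1910.1 and 1985 on d0. After treatment they were 1142, 1201 and 1195 on d1, 792, 739 and 832 on d4, 846, 778 and 1029 on d7 and 1136, 1176 and 1158 on d10. They were 839, 773 and 789 on d15, and 1093, 985 and 891 on d20. No treated library reached the lowest untreated one. The fall was -0.71 (SE 0.08, adjusted p = 9.51e-08) at d1, -1.29 (SE 0.08, adjusted p = 3.38e-12) at d4, -1.13 (SE 0.08, adjusted p = 4.42e-11) at d7 (-1.25 without d7 library 3) and -0.97 (SE 0.08, adjusted p = 5.81e-10) at d20. ESRP2 did not change in step with ESRP1: from d4 to d10 ESRP2 rose by 0.55 (adjusted p = 1.86e-06) while ESRP1 fell by 0.97 (adjusted p = 3.83e-13), and from d10 to d15 ESRP2 fell by 0.53 (adjusted p = 2.41e-06) while ESRP1 rose by 0.79 (adjusted p = 1.88e-12). The lowest levels, at d4 and d15, overlapped with each other.

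The ratio of ESRP1 to ESRP2 within each library shows this contrast in 1 number. It was 2.08 ± 0.0668 at d0 (SD, n = 3, as for every ratio here), 2.85 ± 0.128 at d1, 6.09 ± 0.383 at d4 and 5.07 ± 1.00 at d7. It then returned to 2.11 ± 0.0225 at d10, reached 5.28 ± 0.124 at d15 and ended at 2.01 ± 0.260 at d20. Every library of d4, d7 and d15 had a higher ratio than every library of the other 4 timepoints. Within d7, library 3 had the lowest ratio, 3.92, against 5.49 and 5.79.

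**Figure D3:**
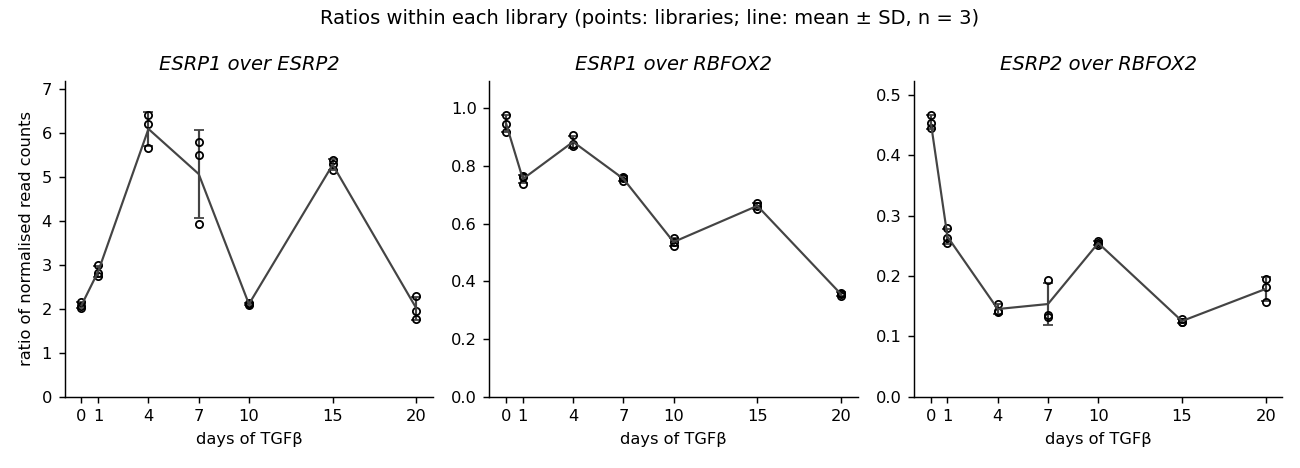
Ratios of normalised read counts within each library (y axis, from 0) against days of TGFβ (x axis), with open circles for libraries and a line through the means with SD bars (n = 3). ESRP1 over ESRP2 is 2.08, 2.11 and 2.01 at days 0, 10 and 20 and 6.09, 5.07 and 5.28 at days 4, 7 and 15, while ESRP1 over RBFOX2 ends at its lowest, 0.355 ± 0.00676.

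Against the mesenchymal regulators the balance also shifted. ESRP1 over RBFOX2 went from 0.947 ± 0.0304 at d0 to 0.536 ± 0.0131 at d10 and 0.355 ± 0.00676 at d20, and it was 0.884 ± 0.0216 at d4. ESRP2 over RBFOX2 was already 0.265 ± 0.0127 at d1, from 0.455 ± 0.0111 at d0, and was lowest at d15, 0.125 ± 0.00291. ESRP1 over QKI went from 1.79 ± 0.0823 at d0 to 0.712 ± 0.0228 at d20. A ratio within a library does not depend on how that library was scaled.

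RBM47, an RNA-binding protein that acts on splicing, on transcript stability and as a partner of APOBEC1 in RNA editing, had the deepest fall of the 9. It was also the least abundant, so its counting error is the widest. Its values were 214, 219.7 and 213 on d0, 101, 99.5 and 72.4 on d1 and 65.2, 55.5 and 67.6 on d4. They were 88.7, 109 and 57.7 on d7, 39.8, 36.9 and 23.5 on d10, 27.5, 19.0 and 21.8 on d15 and 43.5, 27.4 and 36.2 on d20. All treated libraries lay below all untreated ones, and the d10, d15 and d20 libraries, with 21 to 41 reads each, also lay below those of d1, d4 and d7. The log2 fold change was -1.25 (SE 0.23, adjusted p = 6.97e-05) at d1, -1.77 (SE 0.23, adjusted p = 4.67e-07) at d4, -1.37 (SE 0.23, adjusted p = 1.7e-05) at d7, -2.69 (SE 0.23, adjusted p = 9.72e-10) at d10, -3.20 (SE 0.23, adjusted p = 2.88e-11) at d15 and -2.58 (SE 0.23, adjusted p = 2.09e-09) at d20. Without d7 library 3, the d7 value was -1.12 and the step from d4 to d7 passed the test at 0.65 (adjusted p = 0.00644), which it did not with all libraries (0.39, adjusted p = 0.152).

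The late levels of RBM47 could not be ordered firmly. D20, d10 and d15 overlapped with their neighbours in that order. The fall from d10 to d15, -0.52 (SE 0.23, adjusted p = 0.0420), and the rise from d15 to d20, 0.62 (SE 0.23, adjusted p = 0.0180), were each lost without 1 of several libraries, with values of -0.37 without d10 library 1 and 0.47 without d20 library 1. The step from d1 to d4, -0.52 (SE 0.23, adjusted p = 0.0489), was likewise lost without any 1 of 12 libraries.

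RBM47 and HNRNPM are shown with the bases before their annotated starts because, of the members found in RefSeq's promoter table (GRCh38.p14), they were the genes with a CACCTG, the E-box bound by the repressors of the ZEB and SNAI families. The table held 5 of the 9 genes, RBM47, MBNL1, PTBP1, SRSF1 and HNRNPM, with 11 windows of 300 bases from 250 before to 50 after a start. CACCTG was searched on either strand (CAGGTG on the other) and stood in 2 of the 11 windows, beside 20.6% of the 35116 windows of the table. RBM47 had it in 1 of its 4 windows, beginning 208 bases before that start, and these data do not show which start HMLE cells use. The 250 bases before this start (chr4:40514582-40514831, minus strand) and before the start of HNRNPM (chr19:8444725-8444974, plus strand) follow 5′ to 3′, with the E-box in capitals.
RBM47: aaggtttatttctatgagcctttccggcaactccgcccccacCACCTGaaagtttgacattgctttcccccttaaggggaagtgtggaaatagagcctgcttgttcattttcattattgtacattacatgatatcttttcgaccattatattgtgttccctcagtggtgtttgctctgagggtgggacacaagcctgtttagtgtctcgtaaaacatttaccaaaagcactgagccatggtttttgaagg
HNRNPM: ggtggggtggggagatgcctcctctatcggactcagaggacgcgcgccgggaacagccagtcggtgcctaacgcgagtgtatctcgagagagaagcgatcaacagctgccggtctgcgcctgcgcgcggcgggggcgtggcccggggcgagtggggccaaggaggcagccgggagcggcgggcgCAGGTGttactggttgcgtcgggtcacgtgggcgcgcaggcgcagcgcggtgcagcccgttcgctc
In HNRNPM the motif lay on the other strand, 66 bases before the start. A match of 6 letters is a description of the window, not evidence of binding.

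The repressors that read this motif were themselves strongly changed. ZEB1 averaged 5.71 at d0 and 433 at d20 (log2 fold change 6.02, adjusted p = 5.13e-17), ZEB2 15.8 and 144 (3.15, adjusted p = 8.9e-12), and SNAI2 1248 and 5171 (2.05, adjusted p = 4.87e-19). SNAI2 was highest at d4, 8254, whereas ZEB1 was 64.8 there and 185 at d10. TWIST1, another repressor of epithelial genes, rose from 98.6 to 219 (1.15, adjusted p = 5.92e-10), and SNAI1 had at most 4 reads in any library. All 4 that were tested were higher on all 6 days, beside 31.3% to 39.2% of all genes tested, depending on the day. Of 11 epithelial transcription factors listed, 10 were tested and 9 were lower at d20, beside 30.2% of all genes tested. Among the 9 were ELF3 (-3.72, adjusted p = 4.58e-13) and GRHL1 (-3.19, adjusted p = 1.6e-11), while KLF4 was higher (1.10, adjusted p = 6.9e-10). At d7, 2 of the 10 were higher and 5 lower, beside 34.6% and 32.6% of all genes. Without d7 library 3 they were 4 and 6, with calls over all genes at 71.2% instead of 67.2%. From d10 to d15, 7 rose and 1 fell. The share called, 80%, was near the 79.8% of all genes tested, of which 5246 rose and 5403 fell. Whether any of these factors acts on a splicing regulator was not tested.

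RBFOX2, which binds beside alternative exons that switch in EMT, rose on 4 of the 6 days under every scaling. Its values were 4239, 4214 and 4251 on d0, 4499, 4573 and 4285 on d1 and 5592, 5277 and 5395 on d4. They were 6228, 5899.9 and 5331 on d7, 4520.1, 4551 and 4559 on d10, 6516, 6278 and 6351 on d15 and 5581, 5403 and 5652 on d20. Every treated library lay above every untreated one, by little at d1 and d10. The changes were 0.36 (SE 0.04, adjusted p = 2.02e-07) at d4, 0.46 (SE 0.04, adjusted p = 6.9e-09) at d7 (0.52 without d7 library 3), 0.59 (SE 0.04, adjusted p = 4.65e-11) at d15 and 0.39 (SE 0.04, adjusted p = 7.9e-08) at d20. At d10 the value was 0.10 (SE 0.04, adjusted p = 0.0420), and it was not called by edgeR (0.06, adjusted p = 0.205) or DESeq2 (0.09, adjusted p = 0.0696), was lost without any 1 of the 6 libraries compared, and turned to -0.13 with 1 total per library and to -0.08 after quantile normalization. At d1 it was 0.07 (SE 0.04, adjusted p = 0.156), and -0.12 (adjusted p = 0.00919) with 1 total per library. RBFOX2 was highest at d15, apart from all other days, and d7, d20 and d4 overlapped with their neighbours.

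QKI, a STAR-family protein known for exon choice and circular RNAs in EMT, was higher on 5 of 6 days. Values were 2276, 2200.2 and 2247 on d0, 2762, 2878 and 2759.9 on d1 and 3095, 3019.6 and 2886 on d4. They were 2158, 2149 and 2527 on d7, 2798, 2688 and 2769 on d10, 2701, 2734 and 2831 on d15 and 2677, 2816 and 2814 on d20. The d7 libraries overlapped with d0 and those of the other days lay above it. The log2 fold change was 0.32 (SE 0.05, adjusted p = 7.92e-06) at d1, 0.42 (SE 0.05, adjusted p = 1.06e-07) at d4, 0.30 (SE 0.05, adjusted p = 1.53e-05) at d10, 0.30 (SE 0.05, adjusted p = 1.03e-05) at d15 and 0.31 (SE 0.05, adjusted p = 1.27e-05) at d20. With 1 total per library the rises at d10 (0.07, adjusted p = 0.230) and d20 (0.11, adjusted p = 0.0713) were not called. At d7 it was 0.02 (SE 0.05, adjusted p = 0.736), -0.06 without d7 library 3, and -0.17 with 1 total per library. The fall from d4 to d7, -0.40 (SE 0.05, adjusted p = 9.47e-07), stood at -0.48 without that library. D1, d20, d15 and d10 overlapped with each other in order, so no trend appears among them.

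MBNL1, the muscleblind protein that is sequestered by repeat RNA in myotonic dystrophy, was the steadiest of the 9, with library values from 2959.8 to 3768 over the whole course. Its untreated values were 3524, 3376 and 3559.8 on d0, and those of d7 were 3125, 2959.8 and 3282 on d7. The d7 level was the lowest and its libraries lay below all others of the course. It was called against d0 only at d7, with -0.16 (SE 0.04, adjusted p = 0.00095), or -0.20 without d7 library 3. The values at d1, d4, d10 and d15 were 0.04, 0.06, 0.03 and 0.05, and with 1 total per library they turned to -0.15, -0.14, -0.20 and -0.11, each called. On these 4 days the direction of MBNL1 rests on the scaling, while its d7 level was called below d0 in all settings run.

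The paralogs of the members were measured in the same libraries. MBNL2, a muscleblind relative, fell from 1059.8 at d0 to 544 at d10 (-0.96, adjusted p = 5.4e-08). It was higher at d4 (0.36, adjusted p = 0.00408, not called with 1 total per library) and d15 (0.47, adjusted p = 0.000354). ESRP1 was at its higher levels on these days and at d7, where MBNL2 was not called (0.05, adjusted p = 0.704). The d7 libraries of MBNL2 were 1227, 1274 and, in library 3, 832. MBNL3 was lower on all 6 days, from 495 at d0 to 254 at d20 (-0.97, adjusted p = 2.58e-11). PTBP2, the neuronal paralog of PTBP1, averaged 206 at d0 and 159 at d20 (-0.36, adjusted p = 0.00801). PTBP3, listed under its older symbol ROD1, went from 5387 to 4173 (-0.37, adjusted p = 8.42e-08). RBFOX1, RBM46 and A1CF had at most 1, 4 and 3 reads in any library. RBFOX3 had none at d0 and up to 11 reads at d15, too few to pass the filter.

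HNRNPM, an hnRNP protein that promotes skipping of CD44 exons and competes with ESRP1, had the widest swing apart from RBM47. The values were 4445, 4506 and 5064 on d0, 5429, 5370.0 and 5372 on d1 and 1625, 1628 and 1697 on d4. They were 2346, 2579 and 4039 on d7, 6602, 6494 and 6545 on d10, 2035, 2061 and 2148 on d15 and 5274, 5233 and 5235 on d20. No treated library overlapped with d0 on any day, and d7 library 3 lay between d0 and the other d7 libraries. HNRNPM was lower at d4, -1.50 (SE 0.11, adjusted p = 1.39e-10), at d7, -0.68 (SE 0.11, adjusted p = 1.87e-05), and at d15, -1.16 (SE 0.11, adjusted p = 5.74e-09). It was higher at d10, 0.49 (SE 0.11, adjusted p = 0.000668). Without d7 library 3 the d7 value was -0.92. All days share 1 estimate of the spread, which includes that library: d1, 0.21 (SE 0.11, adjusted p = 0.118), and d20, 0.17 (SE 0.11, adjusted p = 0.199), passed the test without it (adjusted p = 4.21e-06 and 8.87e-05). With all libraries and 1 total per library, HNRNPM was called on neither of these days. That setting moved the median of all genes by -0.19 at d1 and -0.20 at d20. Between d4 and d10 the difference was 1.99 (SE 0.11, adjusted p = 3.39e-12), in a contrast where 72.9% of all genes were called.

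SRSF1, an SR protein that binds exonic enhancers and promotes skipping in MST1R, followed a similar course. Its values were 5435, 5413 and 5455 on d0, 6064, 6302 and 6373 on d1 and 3500.0, 3671 and 3904 on d4. They were 2627, 2965 and 3307 on d7, 7872, 7137 and 7785 on d10, 2516, 2834 and 2699.5 on d15 and 4536, 4898 and 4899 on d20. The d1 and d10 libraries all lay above d0 and those of d4, d7, d15 and d20 all below it. SRSF1 fell at d4, -0.56 (SE 0.06, adjusted p = 8.23e-08), at d7, -0.88 (SE 0.06, adjusted p = 9.67e-11) (-0.96 without d7 library 3), and at d15, -1.02 (SE 0.06, adjusted p = 3.54e-12). It rose at d10, 0.48 (SE 0.06, adjusted p = 8.52e-07). At d1 the value of 0.20 (SE 0.06, adjusted p = 0.00978) became 0.01 (adjusted p = 0.930) with 1 total per library, and at d20 the value of -0.19 (SE 0.06, adjusted p = 0.0144) was lost without d20 library 1 (-0.15).

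PTBP1, the polypyrimidine tract protein that mostly blocks exon inclusion, moved the same way within narrower limits. Its values were 7887, 8384 and 8213 on d0, 10300.4, 9782 and 10207 on d1 and 7949.6, 7467 and 7693 on d4. They were 5857, 5901 and 7425 on d7, 10889, 10551 and 10688 on d10, 6359, 6289.7 and 6131 on d15 and 7544, 7131 and 7045 on d20. The d1 and d10 libraries lay above d0, those of d7, d15 and d20 below it, and d4 overlapped with d0. The changes were 0.31 (SE 0.06, adjusted p = 0.000179) at d1, -0.36 (SE 0.06, adjusted p = 2.25e-05) at d7 (-0.47 without d7 library 3), 0.39 (SE 0.06, adjusted p = 7.3e-06) at d10 and -0.38 (SE 0.06, adjusted p = 7.27e-06) at d15. The rise at d1 was not called with 1 total per library (0.11, adjusted p = 0.115) or after quantile normalization (0.09, adjusted p = 0.160), nor that at d10 after quantile normalization (0.12, adjusted p = 0.0537). At d20 the value of -0.17 (SE 0.06, adjusted p = 0.0173) was lost without d0 library 2, d20 library 2 or d20 library 3 (-0.15 to -0.16). At d4 it was -0.08 (SE 0.06, adjusted p = 0.223), and called without d7 library 3 (adjusted p = 0.0119), with 1 total per library (-0.28, adjusted p = 0.000428) and after quantile normalization (-0.21, adjusted p = 0.00108).

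Between neighbouring timepoints, 7 of the 9 genes were called from d1 to d4, beside 64.9% of all genes tested, and 6 from d4 to d7, beside 51.1%. From d7 to d10 all 9 were called, with and without d7 library 3, beside 71.4%. From d10 to d15 and from d15 to d20, 7 were called each time, beside 79.8% and 74.1%. From d7 to d10 HNRNPM rose by 1.17 (1.41 without d7 library 3), SRSF1 by 1.36 (1.44) and PTBP1 by 0.75 (0.87), while ESRP1 fell by 0.85 and RBM47 by 1.31. From d10 to d15 HNRNPM fell by 1.65, SRSF1 by 1.50 and PTBP1 by 0.77 while ESRP1 rose by 0.79 and RBFOX2 by 0.49. Each of these steps had an adjusted p of at most 2.53e-05, that of RBM47.

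Markers of dividing cells moved over the same days. The summed value of 12 proliferation markers, MKI67, TOP2A, MCM2 and others, was 80.5% ± 1.50 of its d0 mean (SD, n = 3) at d1, against 60.2% ± 1.66 at d4 and 75.6% ± 11.6 at d7. It was 89.4% ± 0.794 at d10, 33.6% ± 0.411 at d15 and 98.4% ± 2.00 at d20. Its d7 libraries stood at 68.1%, 69.6% and, in library 3, 89.0%. All 12 were lower at d4 and d15, 11 at d7, 8 at d1, 3 at d10 and 4 at d20. Of all genes tested, 28.5%, 35.3%, 32.6%, 30.7%, 37.3% and 30.2% were called lower from d1 to d20, so the counts at d10 and d20 were near that share. The count at d10 became 8 without d7 library 3 and 10 under either other scaling, and that at d20 became 8 with 1 total per library. Leaving out d7 library 3 also raised the calls over all genes at d10, from 67.8% to 72.7%. The sum, HNRNPM and SRSF1 were thus low together at d4, d7 and d15, but not on other days: at d1 and d10 every library had a sum below those of d0 while its HNRNPM and SRSF1 values lay above those of d0. At d1 this rests on the scaling. There the rise of HNRNPM was not called with all libraries (0.21, adjusted p = 0.118). That of SRSF1 became 0.01 (adjusted p = 0.930) with 1 total per library. ESRP1 had its 3 highest treated levels at d4, d7 and d15. The part of cell division in these results was not tested.

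**Figure D4:**
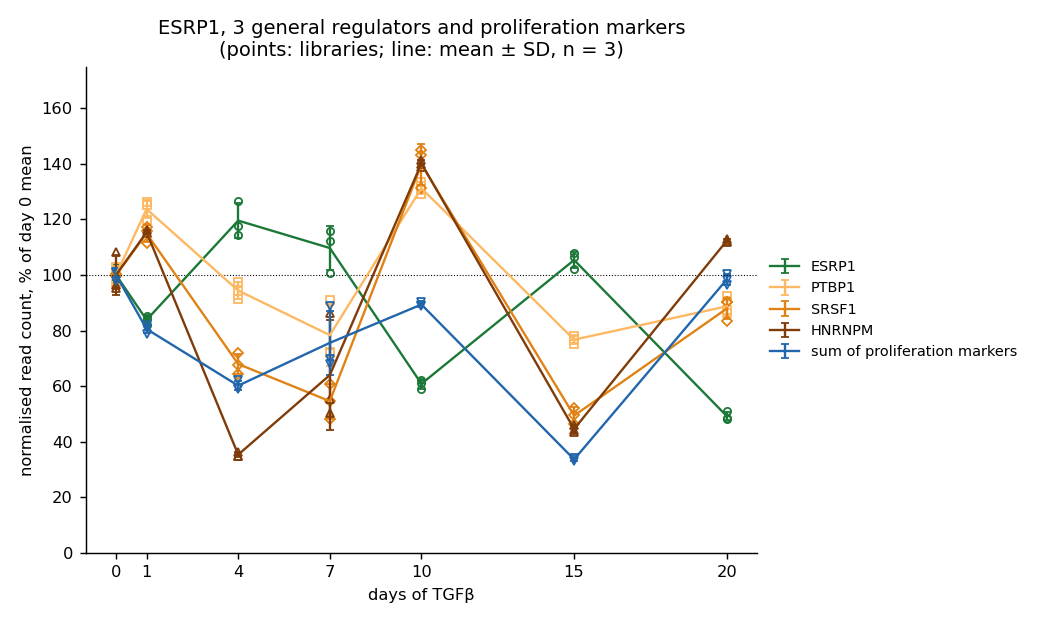
Normalised read counts as percent of the day 0 mean (y axis, from 0) against days of TGFβ (x axis) for ESRP1, PTBP1, SRSF1, HNRNPM and the sum of 12 proliferation markers, with symbols for libraries and lines through the means with SD bars (n = 3). HNRNPM, SRSF1 and the marker sum are low at days 4, 7 and 15, when the ESRP1 mean is above its day 0 mean, and ESRP1 is at its lowest, 49.2%, on day 20.

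The core spliceosome, the snRNP proteins and helicases that every intron requires, was lower on the same days as HNRNPM and SRSF1. Of 43 genes listed, all 43 were tested, and 36 were lower at d4, 35 at d7 (38 without d7 library 3) and 39 at d15, with 2 higher on each of these days. At d10 23 were higher and 2 lower, and at d20 13 and 5, or 17 and 9 without d7 library 3. Leaving that library out raised the calls over all genes to 71.2% at d7 and 68.7% at d20. At d1 16 were higher and 5 lower, 48.8% in all, beside 59.8% of all genes. With 1 total per library the d1 split turned to 2 higher and 21 lower. In all, 88.4% were called at d4, 86.0% at d7, 95.3% at d15, 58.1% at d10 and 41.9% at d20, against 72.2%, 67.2%, 76.5%, 67.8% and 62.7% of all genes. With 1 total per library the falls on d4, d7 and d15 became 41 each, but at d10 the split turned to 9 higher and 18 lower and at d20 to 2 and 25. The median log2 fold change was -0.30 at d4, -0.27 at d7 and -0.45 at d15, where that of all genes was 0.01, 0.00 and 0.01. EFTUD2, the GTPase of the U5 snRNP, was the most raised at d20 (0.42, adjusted p = 2.13e-06), followed by U2AF1, which reads the 3′ splice site (0.33, adjusted p = 0.000194, not called with 1 total per library). SNRPF, an Sm protein, was the most lowered (-0.34, adjusted p = 0.000802), followed by SF3B3 of the U2 snRNP (-0.22, adjusted p = 0.000125).

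Among 77 other splicing regulators (CELF, ELAVL, KHDRBS, RBM, SR and hnRNP families), 61 were tested. Those called higher numbered 18, 11, 4, 31, 9 and 6 from d1 to d20, and those called lower 15, 39, 42, 11, 42 and 22. In all, 54.1%, 82.0%, 75.4%, 68.9%, 83.6% and 45.9% were called, beside 59.8%, 72.2%, 67.2%, 67.8%, 76.5% and 62.7% of all genes tested. Without d7 library 3 those called higher became 28 at d1, 8 at d7 and 12 at d20. In that fit the share of all genes called rose as well, to 66.3%, 71.2% and 68.7%. Falls were thus the more frequent at d4, d7, d15 and d20 and rises at d10, but with 1 total per library the split at d10 turned to 6 higher and 29 lower and at d1 to 4 and 30. The largest rises at d20 were of KHDRBS3, a relative of SAM68 (12.0 to 26.1, log2 fold change 1.11, adjusted p = 0.000275), and RBM24, a regulator of muscle exons (9.10 to 16.0, 0.91, adjusted p = 0.0437), both at low counts, the latter not called with 1 total per library. The largest falls were of ELAVL2, a neuronal Hu protein (409 to 121, -1.75, adjusted p = 9.21e-10), and MBNL3, given above.

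SR proteins are switched by phosphorylation, which counts of RNA do not show. Of 7 kinases of SR proteins listed, 6 were tested, and 5, 5, 4, 2, 4 and 1 were higher from d1 to d20 and 0, 0, 1, 0, 1 and 1 lower. Thus 83.3% were called at d1, d4, d7 and d15 and 33.3% at d10 and d20, while the shares of all genes ranged over the 6 days from 59.8% to 76.5%. CLK3, 1 of the Cdc2-like kinases, went from 728 at d0 to 1436 at d4 (0.99, adjusted p = 1.74e-11) and 808 at d20 (0.16, adjusted p = 0.0436). CLK2 was lower at d20 (-0.27, adjusted p = 0.000467). With 1 total per library 2, 4, 3, 0, 3 and 0 of the 6 were higher and 1, 1, 2, 2, 2 and 4 lower, and CLK3 at d20 turned to -0.04 (adjusted p = 0.576).

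Genes whose isoforms these regulators are known to set were also compared at the gene level. Of 20 listed and tested, 8, 7, 13, 10, 9 and 12 were higher from d1 to d20 and 6, 8, 4, 4, 6 and 5 lower. In all, 14, 15, 17, 14, 15 and 17 of the 20 were called, beside 59.8%, 72.2%, 67.2%, 67.8%, 76.5% and 62.7% of all genes, so the list was near or below those shares at d4, d10 and d15. ITGA6, a laminin receptor subunit, rose from 8586 to 19058 (1.15, adjusted p = 2.22e-17). FGFR2, whose epithelial isoform depends on the ESRP proteins, went from 448 at d0 to 595 at d15 (0.41, adjusted p = 0.00549) and 197 at d20 (-1.18, adjusted p = 3.85e-08). BIN1, a membrane-curving protein, fell to 194 at d20 from 278 (-0.52, adjusted p = 0.0455). With 1 total per library the calls at d20 were 6 higher and 7 lower and FGFR2 at d15 was not called, nor was BIN1 at d20 after quantile normalization. These values are sums over all isoforms of a gene.

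For each of the 9, the genes with the most similar course were sought by the root mean square difference of the 6 log2 fold changes, over 10602 genes with a mean of at least 100. For ESRP1 these were SH3YL1 (0.08), ZCCHC2 (0.13) and TMTC2 (0.14), for ESRP2 DHRS11 (0.18) and ZNF589 (0.20), and for RBM47 KLK5 (0.27), EVPL (0.31) and GBP6 (0.43). RBFOX2 was nearest to OTUD5 (0.07), MAN1B1 (0.08) and ACYP2 (0.08), QKI to UBE2J1 (0.05), GORASP2 (0.07) and TRIM39 (0.07) and MBNL1 to KTN1 (0.04), RFC1 (0.04) and YY1 (0.05). SRSF1 was nearest to NCL (0.07), MYBBP1A (0.11) and TOMM40 (0.11), PTBP1 to GNL3L (0.06), SMAGP (0.08) and SMYD5 (0.09) and HNRNPM to EIF5 (0.20), TRDMT1 (0.21) and TMEM177 (0.21). Genes that change little are close by this measure whatever they do, as in the case of MBNL1. Among the members themselves, RBFOX2 and QKI were the closest pair (0.25) and RBM47 and RBFOX2 the most distant (2.60), while ESRP1 and ESRP2 differed by 1.00.

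**Figure D5:**
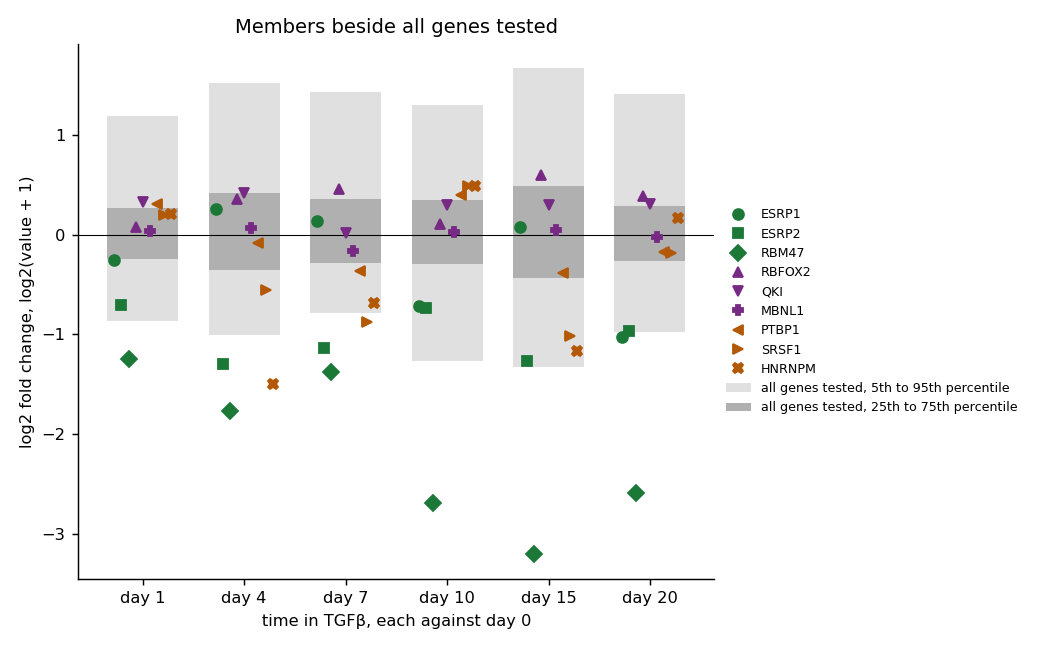
Log2 fold changes on the log2(value + 1) scale (y axis) of the 9 genes on each day of TGFβ against day 0 (x axis), over bars that span the 5th to 95th and 25th to 75th percentiles of the 13343 genes tested. RBM47 lies below the 5th percentile of all genes on every day, while no member lies above the 95th.

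Levels between genes can be compared only per length. With the merged exon lengths of GENCODE 29, which is not stated to be the annotation used for counting, the d0 value per kilobase was highest for PTBP1, 2207 ± 68.3 (SD, n = 3), and lowest for RBM47, 38.2 ± 0.673. HNRNPM (1735) and SRSF1 (1697) followed PTBP1, then ESRP1 (1036), RBFOX2 (584), MBNL1 (520.3), ESRP2 (502) and QKI (142). The use of strand in counting is not given in the sources used here. In the same annotation the exons of ESRP2 overlap those of NFATC3 on the other strand over 149 bases, those of MBNL1 overlap MBNL1-AS1 over 1033 bases, those of SRSF1 share 1890 bases (59.0% of its exon bases) with a clone-named coding gene on the same strand, and PTBP1, SRSF1 and HNRNPM have processed pseudogenes, so a part of the reads of these genes could be assigned otherwise.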

How the data were processed

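HMLE cells were profiled by RNA-seq without treatment and after 1, 4, 7, 10, 15 and 20 days of TGFβ, with 3 libraries per timepoint and 21 in all. The authors deposited 1 normalised signal per gene symbol and library. The submitters' processing notes name STAR 2.7, Salmon 1.4 and hg19, while the annotation and the counting are not given in the sources used here. The deposited signal was a read count divided by 1 size factor per library: whole reads came back for 100% of the values (tolerance 0.1 read), with 18847917 to 22667754 reads per library, and the factors lay within 0.510% of the median-of-ratios factors of DESeq2. Every column was mapped to its timepoint by name, and 0 columns were left unmapped.

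The 13343 genes with a mean signal of at least 10 were fitted on log2(signal + 1) by limma 3.58.1 (R 4.3.3, moderated with an intensity trend), with a mean for each timepoint and no block. Adjustment followed Benjamini and Hochberg, within a contrast and over all 13343 genes, and calls were made under 0.05. A fold change on the log2(signal + 1) scale understates the change of low genes. The fits were tested on simulated data. Alternatives were a pseudocount of 10, no filter, libraries rescaled to 1 total, quantile normalization, edgeR 4.0.16 and DESeq2 1.42.0 on the recovered reads, only the 2 timepoints compared, a minimum 2-fold change, and leaving out each library in turn. Tables were read in Python 3.11.15 and drawn with matplotlib 3.10.9. Older symbols were matched through RefSeq synonyms for 5 listed genes.

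The members, gene lists and tests were chosen with earlier results of these data known. Named genes were all members and, of each list, at most 2 with the largest rise and 2 with the largest fall at d20 among those past the threshold, plus direct paralogs, repressors of epithelial genes, defining markers, and the 3 genes nearest in course to each member. A few genes that this rule names are not reported here. CLK3 at d4 and FGFR2 at d15 were given after their values were seen. P-values set a difference against the spread between the 3 libraries of a timepoint. In the main fit that spread was estimated for each gene over all timepoints together and moderated across genes. Nothing was tested on exon usage.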

Additional observations from a re-analysis of the deposited data

Results flagged for a closer look

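Of the 9 regulators, 4 were called higher than d0 on one day of TGFβ and lower on another, and the difference between such days was tested directly. Of all genes tested, 28.7% were called in both directions over the 6 days. ESRP1 was higher at d4 and lower at d20, a difference of 1.28 on the log2 scale (SE 0.05, limma adjusted p = 1.01e-14). The rise of ESRP1 at d4 was not called when libraries were rescaled to 1 total, while the difference between the days was.

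PTBP1 was higher at d10 than at d15 by 0.77 (SE 0.06, adjusted p = 1.56e-10) and SRSF1 by 1.50 (SE 0.06, adjusted p = 7.28e-15). HNRNPM was higher at d10 than at d4 by 1.99 (SE 0.11, adjusted p = 3.39e-12). In each of the 4 cases all libraries of one day lay apart from all libraries of the other. The days were chosen as those of the highest and lowest change, so each p and each separation describes a difference that was picked for its size. How many of all genes separate in the same way was not counted. The sum of 12 proliferation markers differed over the same days, and its part in these differences was not tested.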

How the results depend on the processing

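No paired analysis was possible because column names give the timepoint and no replicate. Over 99 single fold changes and 2772 alternative values, 2672 kept their side of the threshold and, where called, their direction. Turns between values that were not called in either fit count among these, such as QKI at d7 without d7 library 3. A further 57 lost a call, 32 gained one and 11 turned in direction with a call in either fit. The turned values were small: with libraries rescaled to 1 total, ESRP1 at d7 (-0.060), RBFOX2 at d1 (-0.12) and d10 (-0.13), QKI at d7 (-0.17) and MBNL1 at d1 (-0.15), d4 (-0.14), d10 (-0.20) and d15 (-0.11), and after quantile normalization RBFOX2 at d10 (-0.082) and MBNL1 at d1 (-0.10) and d10 (-0.16). The first setting shifted the median of all genes by -0.16 to -0.23 on the log2 scale, and the cause was not tested. With a minimum 2-fold change, members called against d0 numbered 1, 3, 2, 1, 4 and 2 from d1 to d20, and between neighbouring timepoints 1, 0, 3, 2 and 2. Of 458 alternative values of the counts and direct differences, the other 447 kept their call or stayed within 1.5 times. Depth limits RBM47, whose treated libraries held 21 to 105 reads, so its order among d10, d15 and d20 could not be set.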
